A study of Mus musculus with 12 samples.

Results

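The genes described here encode the chaperones, isomerases and degradation factors of the endoplasmic reticulum (ER). They were chosen by name, as 37 mouse genes with known roles in folding or disposing of secretory proteins. The choice was made with earlier results of these data known. Of the 37, 36 had a probe on the array, and 32 were measured among the 9379 genes tested. A gene counted as measured when a probe had a detection p-value under 0.05 on at least 6 of the 12 arrays. Dnajb11 had no probe under its symbol and was not analysed here. Ero1l (listed as Ero1a), Canx, Derl1 and Uggt1 had probes that were detected on 0 of 12 arrays. Ero1lb was measured under its current symbol, Ero1b.

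Total RNA of whole submandibular gland from C57BL6J mice was hybridised to Illumina bead arrays, with 6 arrays of mice aged 8 weeks and 6 of mice aged 50 weeks. No treatment or altered allele is labelled, and the labels do not give the sex of the mice. The comparison asks which transcripts differed between these ages, and what belongs to growth past 8 weeks cannot be told apart from ageing. Per array, mean intensity was 207 to 324, and 15318 to 18110 probes were detected. The array labelled 50 weeks number 6 stood apart, with a mean correlation of 0.949 with its own age against 0.975 or more for each of the others, so results that rest on it are given with and without it. Markers of the labelled tissue were present: 12 of 14 listed acinar genes were measured, with a summed linear intensity of 177100 to 223100 at 8 weeks and 178600 to 217700 at 50 weeks.

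Acinar and granular duct cells of this gland make large amounts of secreted glycoprotein and protease, which enter the ER unfolded. There Hspa5 (BiP), an Hsp70 chaperone, binds nascent chains with the help of J-domain cochaperones and exchange factors, protein disulfide isomerases form and rearrange disulfide bonds, and lectin chaperones hold glycoproteins until they fold. Chains that fail are passed to ER-associated degradation, in which ubiquitin ligases of the ER membrane mark them for the proteasome. When unfolded protein accumulates, the transcription factors Atf6, spliced Xbp1 and Atf4 raise many of these genes, and Atf6 with NF-Y does so through the ER stress element of their promoters.

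The promoter sequences of the genes that the results turn on are shown first, as a description. Many genes with these roles are known to carry the ER stress element, so its share among members was not independent of their choice. Its part in the change with age was not tested. The ER stress element was searched as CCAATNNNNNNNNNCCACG on both strands of windows running from 250 bases before to 50 bases after each annotated start site (RefSeq, GRCm38.p6). It occurred in 39 of 32851 windows of this length (0.119%), and 10 of those 39 windows belonged to members. Of the 37 members, 32 had an entry, and 10 of these held the element. Among the 11 members that rose with age and had an entry, 6 held it: Hspa5, Hsp90b1, Creld2, Pdia6, Dnajc3 and Syvn1. Among the 17 other measured members with an entry, 3 held it: Calr, Derl3 and Ero1b. This split rests on 50 weeks array 6. Without that array these 3 also rose (adjusted p by limma's moderated test 0.00313, 0.00175 and 0.021). So did Pdia3, P4hb, Fkbp11 and Edem1, which had an entry and did not hold the element. The last of the 10 was Canx, which was not detected. A match describes letters only and does not show that a factor binds there.

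The windows of 4 members that rose are printed 5′ to 3′ on the strand of the gene, with matches to the element, and in Hspa5 also to the core TGACGTG described next, in capitals. They lie at chr2:34771840-34772139 (plus strand, Hspa5), chr10:86705395-86705694 (minus strand, Hsp90b1), chr12:17266339-17266638 (plus strand, Pdia6) and chr15:88819396-88819695 (plus strand, Creld2). In Creld2, and in the second match of Hsp90b1, the element runs on the opposite strand, so its capitals read CGTGG and ATTGG.
Hspa5 promoter: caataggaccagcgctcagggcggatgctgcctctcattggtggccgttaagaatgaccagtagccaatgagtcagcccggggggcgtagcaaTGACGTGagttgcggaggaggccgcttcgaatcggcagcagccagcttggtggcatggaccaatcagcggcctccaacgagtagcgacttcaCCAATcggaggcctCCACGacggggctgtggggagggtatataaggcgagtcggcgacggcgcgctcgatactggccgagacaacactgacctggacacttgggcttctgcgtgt
Hsp90b1 promoter: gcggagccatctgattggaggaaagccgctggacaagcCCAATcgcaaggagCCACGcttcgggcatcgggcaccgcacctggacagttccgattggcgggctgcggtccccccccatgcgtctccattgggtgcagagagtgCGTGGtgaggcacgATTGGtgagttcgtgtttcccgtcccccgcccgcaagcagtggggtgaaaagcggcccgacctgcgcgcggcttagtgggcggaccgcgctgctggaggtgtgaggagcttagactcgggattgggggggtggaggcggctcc
Pdia6 promoter: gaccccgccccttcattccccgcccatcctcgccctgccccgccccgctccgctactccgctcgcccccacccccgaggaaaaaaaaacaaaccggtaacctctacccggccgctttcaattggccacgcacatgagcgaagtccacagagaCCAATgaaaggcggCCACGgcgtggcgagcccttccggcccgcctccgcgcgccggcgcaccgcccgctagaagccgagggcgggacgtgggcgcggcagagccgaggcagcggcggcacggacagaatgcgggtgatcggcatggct
Creld2 promoter: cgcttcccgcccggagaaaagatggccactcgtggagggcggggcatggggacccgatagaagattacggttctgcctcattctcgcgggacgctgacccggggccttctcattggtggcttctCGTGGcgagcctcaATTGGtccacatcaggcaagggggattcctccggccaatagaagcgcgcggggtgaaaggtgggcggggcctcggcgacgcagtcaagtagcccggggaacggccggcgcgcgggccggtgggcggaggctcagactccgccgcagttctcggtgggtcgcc

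The sites themselves, each turned to read from CCAAT to CCACG with the fixed letters in capitals, are set side by side to show that the 9 bases between the fixed letters differed from gene to gene. Hspa5, Hsp90b1 (with 2 sites), Pdia6, Creld2, Dnajc3 and Syvn1 come first, followed by the 3 measured members that held the element and did not pass the test.
Hspa5: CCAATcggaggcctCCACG
Hsp90b1: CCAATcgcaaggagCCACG
Hsp90b1: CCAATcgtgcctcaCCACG
Pdia6: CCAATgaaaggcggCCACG
Creld2: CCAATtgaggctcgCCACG
Dnajc3: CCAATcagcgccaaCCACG
Syvn1: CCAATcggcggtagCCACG
Calr: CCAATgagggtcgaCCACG
Derl3: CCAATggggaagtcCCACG
Ero1b: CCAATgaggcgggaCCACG
The site of Hspa5 began 65 bases before the start (chr2:34772025-34772043), that of Pdia6 98 (chr12:17266491-17266509), that of Dnajc3 105 (chr14:118937827-118937845), that of Creld2 126 (chr15:88819520-88819538) and that of Syvn1 44 (chr19:6046532-6046550). The second form of the element, ATTGGNCCACG, was found in 12 windows (0.0365%), of which 2 were those of Herpud1 and Dnajb11. The core of the unfolded protein response element, TGACGTG, was found in 661 windows (2.01%), 4 of them of members: Hspa5, Txndc5, Txndc11 and Fkbp11. None of the matches in members overlapped another. Sdf2l1, Pdia4 and Pdia5, which also rose, held none of these 3 patterns in their windows.

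**Figure D1:**
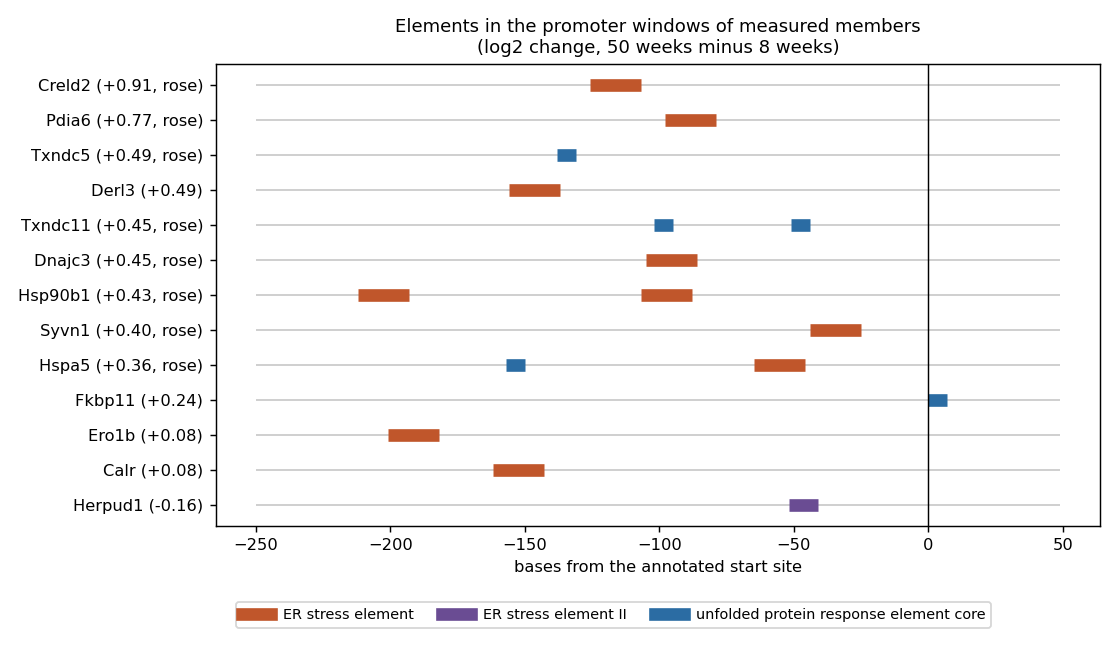
Positions of the ER stress element, its second form and the unfolded protein response element core in the promoter windows of measured members. The x axis gives bases from the annotated start site, and each line is 1 member with its log2 change at 50 weeks minus 8 weeks. The element of the ER stress type lies from 44 to 212 bases before the start.

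Many ER folding genes were higher in old glands. Of the 32 measured members, 12 rose at 50 weeks (37.5%) and 0 fell by limma's moderated test with Benjamini-Hochberg adjustment over all 9379 genes at 0.05. Across all genes tested, 6.35% were higher and 6.13% were lower (596 and 575 genes). With arrays scaled to 1 median in place of quantiles, 320 genes were higher and 73 lower, and 9 members rose and 0 fell. At an unadjusted p under 0.05, 18 members were higher and 1 was lower. Counts at this level were not made over all genes, so those given here and for other lists have no share beside them. The log2 change was positive in 27 of 32 members and in 4359 of all 9379 genes. The median was 0.25 in members and -0.02 over all genes, whose 5th to 95th percentiles ran from -0.42 to 0.45. For 9 members the lowest old array lay above the highest young array, a pattern seen in 3.34% of all genes.

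The 12 genes that rose made up 4 of 7 measured members of the Hsp70 system, 2 of 3 of the Hsp90 and secreted stress proteins, 5 of 10 disulfide isomerases and oxidases, and 1 of 5 genes of ER-associated degradation. Of the 3 proline isomerases and the 4 lectins and glycoprotein quality control genes, 0 passed the test. At an unadjusted p under 0.05 each of these groups had 1 gene higher and 0 lower. Without 50 weeks array 6, 2 of these 4 genes and 1 of these 3 rose. In the same fit 5 of 7 Hsp70 system genes, 3 of 3 Hsp90 and secreted stress genes and 8 of 10 disulfide genes rose. Of the degradation genes 2 of 5 rose, and 1 disulfide gene, Erp29, fell. Over all 9379 genes, 1071 (11.4%) were then higher and 1277 lower. These differences between roles were not tested. Because whole gland was measured, fewer or more cells of a type and less or more RNA per cell cannot be told apart.

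**Figure D2:**
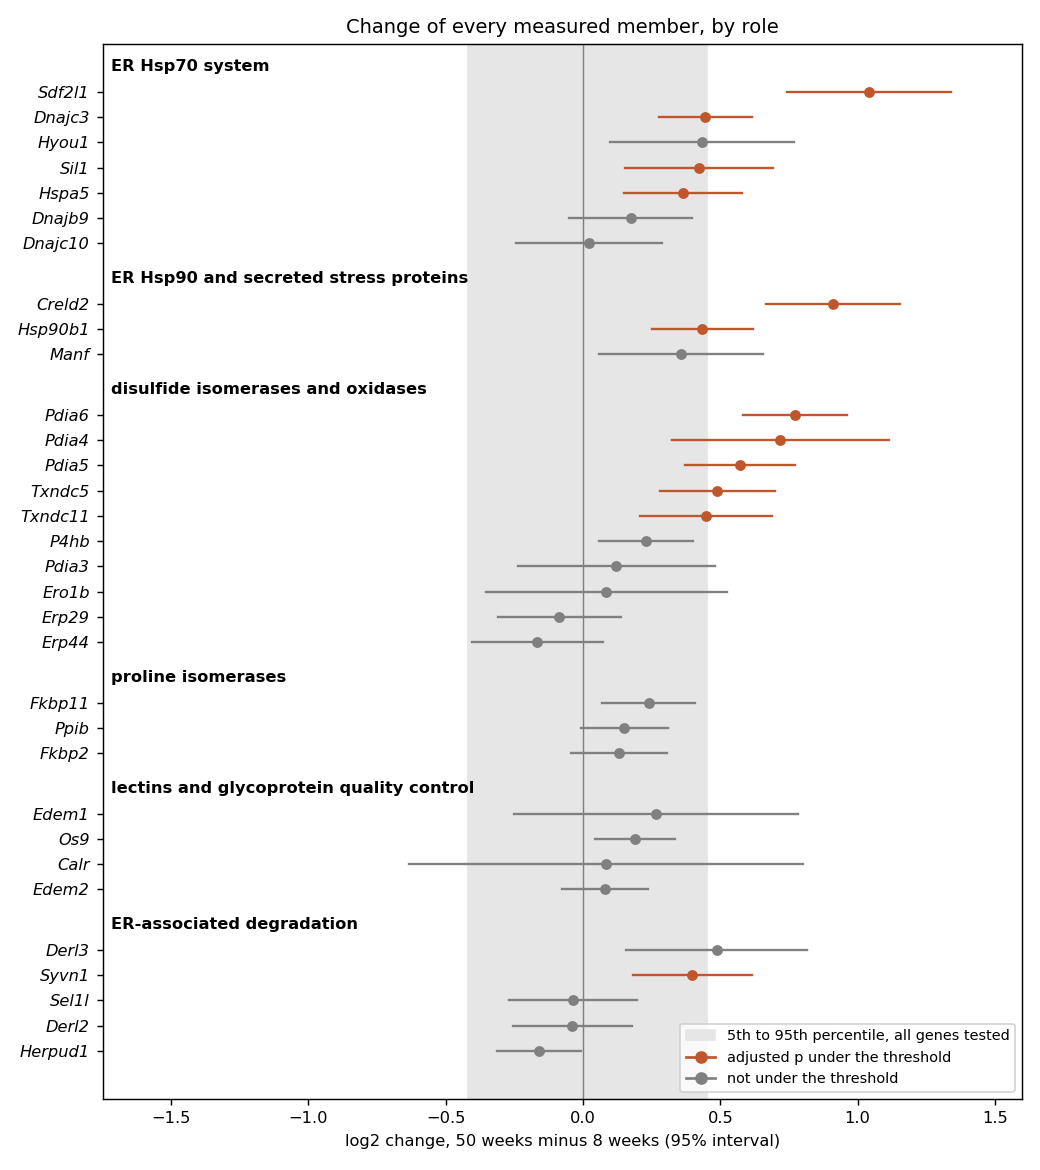
Log2 change at 50 weeks minus 8 weeks of each measured member, ordered by role, with its 95% interval. Coloured points passed the test, grey points did not, and the grey band spans the 5th to 95th percentile of all genes tested, from -0.42 to 0.45. Sdf2l1, at 1.04, and Creld2, at 0.91, lie farthest to the right.

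Averaged over the 32 members, log2 intensity was 9.12 ± 0.07 (SD, n = 6) at 8 weeks and 9.42 ± 0.10 (SD, n = 6) at 50 weeks, a difference of 0.30 ± 0.05 (SE). The young arrays, numbers 1 to 6, had means of 9.01, 9.08, 9.13, 9.18, 9.19 and 9.13. The old arrays had 9.50, 9.42, 9.49, 9.48, 9.38 and 9.24. Every old array lay above every young one, and the closest pair was 50 weeks array 6 and 8 weeks array 5. Within the young group, 8 weeks array 1 was the lowest of its age in 17 of the 32 members and in 7 of the 12 that rose.

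In the Hsp70 system, Sdf2l1, Dnajc3, Sil1 and Hspa5 rose. Sdf2l1, a stress-induced partner of ER J-domain proteins, had the largest change of the 32 measured members. Its log2 intensity at 8 weeks was lowest at 7.34, had a median of 7.76 and was highest at 7.88. At 50 weeks it was 8.23, 8.77 and 9.11. The old arrays all lay above the young ones, with array 6 the lowest of the old. The mean went from 7.70 ± 0.21 to 8.74 ± 0.30 (SD, n = 6 each), a change of 1.04 ± 0.14 (SE) or 2.06-fold (limma adjusted p = 0.000416).

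Dnajc3 (p58IPK), a J-domain cochaperone that delivers unfolded chains to BiP, ran from 9.82 through a median of 9.98 to 10.02 at 8 weeks and from 10.23 through 10.39 to 10.64 at 50 weeks. All old arrays were above all young ones. It rose by 0.45 ± 0.08 (SE), or 1.36-fold (limma adjusted p = 0.00277).

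Hspa5, BiP itself, ran from 8.41 through 8.50 to 8.69 at 8 weeks and from 8.62 through 8.90 to 9.15 at 50 weeks. Only 50 weeks array 6 fell within the young range. The rise was 0.36 ± 0.10 (SE), or 1.29-fold (limma adjusted p = 0.0300). Its call was lost on leaving out any one of the young arrays 1, 2, 4 and 5 or the old arrays 1, 2, 3 and 4 (adjusted p from 0.0509 to 0.0707), with the change between 0.31 and 0.37. It was also lost with arrays scaled to 1 median (adjusted p = 0.186), in the values the authors scaled (0.0642) and with the replicate block (0.0617), and without array 6 it was 0.42 ± 0.09 (adjusted p = 0.00538).

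Sil1, the nucleotide exchange factor of BiP, ran from 7.95 through 8.13 to 8.35 at 8 weeks and from 8.34 through 8.47 to 9.10 at 50 weeks. Array 6 was the highest of the old arrays, and array 5 overlapped the young range. The rise was 0.42 ± 0.13 (SE), or 1.34-fold (limma adjusted p = 0.0431). This call was lost on leaving out any one of the young arrays 1 to 5 or the old arrays 1 to 3 (adjusted p from 0.0538 to 0.0879), with arrays scaled to 1 median (0.0643) and with no detection filter (0.0688). Without array 6 its change was 0.31 ± 0.09 (adjusted p = 0.0215).

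Of the other measured cochaperones, Hyou1 (Grp170), a large Hsp70 relative that also exchanges nucleotide on BiP, had a change of 0.43 ± 0.16 that did not pass (adjusted p = 0.0862). It was 6.45 to 6.86 at 8 weeks, 6.88 to 7.36 on the first 5 old arrays and 6.34 on array 6. Dnajb9 (ERdj4) and Dnajc10 (ERdj5), J-domain proteins linked to degradation, had changes of 0.17 and 0.02, with adjusted p-values of 0.311 and 0.937. Other probes of Dnajc10 gave -0.41 and -0.22 and did not pass either.

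Among the Hsp90 and secreted stress proteins, Creld2 and Hsp90b1 rose, with every old array above every young one. Creld2, a secreted ER stress protein with isomerase activity, ran from 9.25 through 9.58 to 9.75 at 8 weeks and from 10.26 through 10.39 to 10.78 at 50 weeks. Array 1 was the lowest young array and array 5 the lowest old one. It rose by 0.91 ± 0.11 (SE), or 1.88-fold (limma adjusted p = 0.00025), and its second probe gave 1.02 ± 0.13 (adjusted p = 0.000283).

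Hsp90b1 (Grp94), the ER Hsp90, ran from 11.77 through 12.00 to 12.15 at 8 weeks and from 12.24 through 12.45 to 12.51 at 50 weeks, with no overlap. Its rise was 0.43 ± 0.09 (SE), or 1.35-fold (limma adjusted p = 0.00561). Manf, a secreted protein retained in the ER with BiP, had a change of 0.36 ± 0.14 that did not pass (adjusted p = 0.111) and was detected on 5 of 6 young arrays.

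**Figure D3:**
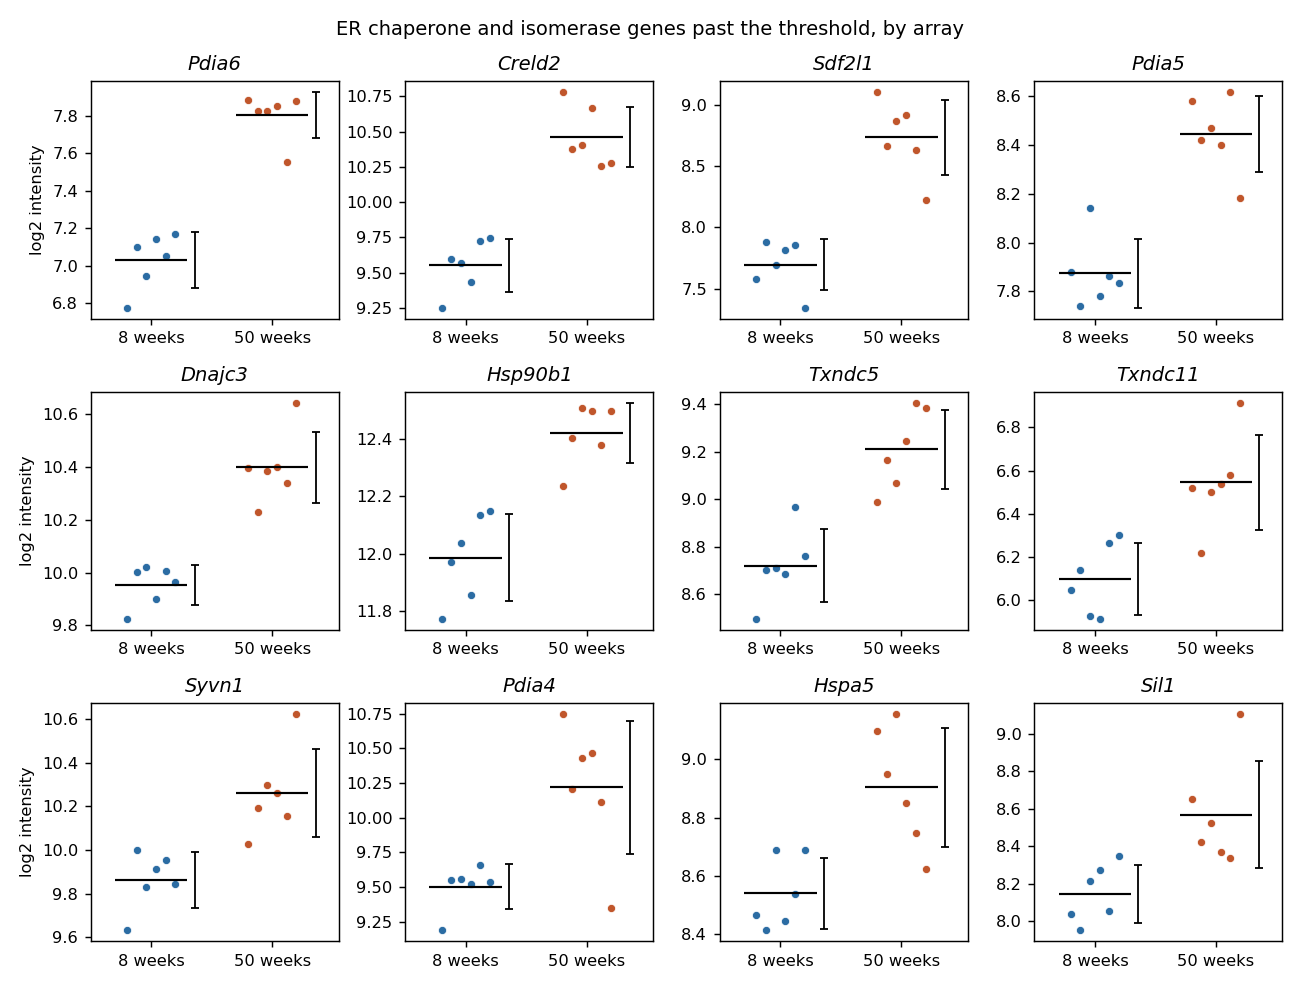
Log2 intensity of the 12 members that rose, with 1 point per array, a line at the mean of each age and a bar for 1 SD (6 arrays each). In 8 panels the old arrays all lie above the young ones, and in Hspa5, Sil1, Pdia4 and Txndc11 1 old array reaches the young range.

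Of the 10 measured disulfide isomerases and oxidases, 5 rose: Pdia6, Pdia5, Pdia4, Txndc5 and Txndc11. These are members of the protein disulfide isomerase family, with thioredoxin-like domains. Pdia6 (P5), a partner of BiP, ran from 6.78 through 7.08 to 7.17 at 8 weeks and from 7.56 through 7.84 to 7.88 at 50 weeks. The ages did not overlap. It rose by 0.77 ± 0.09 (SE), or 1.71-fold (limma adjusted p = 0.000128), while its dimmer probe gave 0.29 ± 0.11 and did not pass (adjusted p = 0.106).

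Pdia5 ran from 7.74 through 7.85 to 8.14 at 8 weeks and from 8.18 through 8.45 to 8.62 at 50 weeks. The ages were separated by the narrow gap between 8 weeks array 3 and 50 weeks array 6. It rose by 0.57 ± 0.09 (SE), or 1.49-fold (limma adjusted p = 0.00161), and its other probes gave 0.52 and 0.20 and did not pass.

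Txndc5 (ERp46) ran from 8.50 through 8.71 to 8.97 at 8 weeks and from 8.99 through 9.21 to 9.41 at 50 weeks. The ages did not overlap, although 8 weeks array 5 came close to 50 weeks array 1. The rise was 0.49 ± 0.10 (SE), or 1.40-fold (limma adjusted p = 0.00568).

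Pdia4 (ERp72), which works in complexes with BiP and Grp94, ran from 9.19 through 9.54 to 9.66 at 8 weeks and from 9.35 through 10.32 to 10.75 at 50 weeks. The first 5 old arrays were at 10.12 or higher, and array 6 lay within the young range. Its rise of 0.72 ± 0.18 (SE), or 1.65-fold (limma adjusted p = 0.0213), was lost without 50 weeks array 4 (0.0502) and with arrays scaled to 1 median (0.0502). Without array 6 it was 0.89 ± 0.11 (adjusted p = 0.000277).

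Txndc11, a thioredoxin-like ER protein linked to degradation, ran from 5.91 through 6.09 to 6.30 at 8 weeks and from 6.22 through 6.53 to 6.91 at 50 weeks. Array 2 of the old arrays overlapped the young range. The rise was 0.45 ± 0.11 (SE), or 1.36-fold (limma adjusted p = 0.0191). Its other 3 kept probes gave 0.43, 0.36 and 0.15, and none of the 3 passed.

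The 5 other measured members of this role did not pass. P4hb, the founding protein disulfide isomerase, had a change of 0.23 ± 0.08 (adjusted p = 0.0758). Pdia3 (ERp57), which acts on glycoproteins held by the lectins, had 0.12 ± 0.17, and Ero1b, an oxidase that recharges the isomerases, had 0.08 ± 0.20. Erp29, an inactive family member, and Erp44, which retrieves client proteins from the Golgi, had changes of -0.09 ± 0.10 and -0.17 ± 0.11.

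The proline isomerases had small positive changes and did not pass the test. Fkbp11, an FK506-binding protein of secretory cells, had the smallest adjusted p (0.0625) with a change of 0.24 ± 0.08. Its young arrays lay between 10.43 and 10.74 and its old arrays between 10.66 and 10.92. Ppib (cyclophilin B), which acts on procollagen, had 0.15 ± 0.07, and Fkbp2 had 0.13 ± 0.08.

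Of the lectins and glycoprotein quality control genes, Os9, a lectin that hands misfolded glycoproteins to the Hrd1 ligase, came closest. It ran from 9.79 through 9.95 to 10.04 at 8 weeks and from 10.07 through 10.11 to 10.23 at 50 weeks. The ages did not overlap, but the change of 0.19 ± 0.07 did not pass (limma adjusted p = 0.0869). Edem2, which starts mannose trimming of misfolded glycoproteins, had 0.08 ± 0.07. Calr (calreticulin), a lectin chaperone, and Edem1, a mannosidase-like protein of degradation, had 0.08 ± 0.33 and 0.26 ± 0.24, with wide errors set out below.

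In ER-associated degradation, Syvn1 rose, and the other 4 measured genes did not pass. Syvn1 (Hrd1), the ubiquitin ligase of the ER membrane, ran from 9.63 through 9.88 to 10.00 at 8 weeks and from 10.03 through 10.23 to 10.62 at 50 weeks. The ages did not overlap, by a narrow margin. The rise was 0.40 ± 0.10 (SE), or 1.32-fold (limma adjusted p = 0.0203). Sel1l, the adaptor that holds Syvn1 in its complex, had a change of -0.04 ± 0.11, with a 95% interval from -0.27 to 0.20.

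Derl3 (Derlin-3), a channel component found in secretory cells, had 0.49 ± 0.15 and lay just outside the threshold (adjusted p = 0.0531). Derl2 had -0.04 ± 0.10. Herpud1 (Herp), which recruits the degradation complex, was the only member lower at an unadjusted p under 0.05. It ran from 12.43 through 12.53 to 12.65 at 8 weeks and from 12.26 through 12.38 to 12.49 at 50 weeks. The ages overlapped, and the change of -0.16 ± 0.07 did not pass (adjusted p = 0.167).

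In several members that did not pass, 50 weeks array 6 lay far from the other old arrays. Calr was 9.30 to 9.69 at 8 weeks and 9.70 to 10.11 on the first 5 old arrays, but 7.65 on array 6. Pdia3 was 11.67 to 11.95 on those 5 arrays and 10.77 on array 6. Ero1b was 9.30 to 9.57 and 8.10, and Edem1 was 6.05 to 6.57 and 4.86. The array was not low throughout, since Erp29 was 11.02 on it against 10.38 to 10.50, and Dnajc10 was 10.27 against 9.70 to 9.90. It was the lowest old array in 13 of 32 members and the highest in 9.

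**Figure D4:**
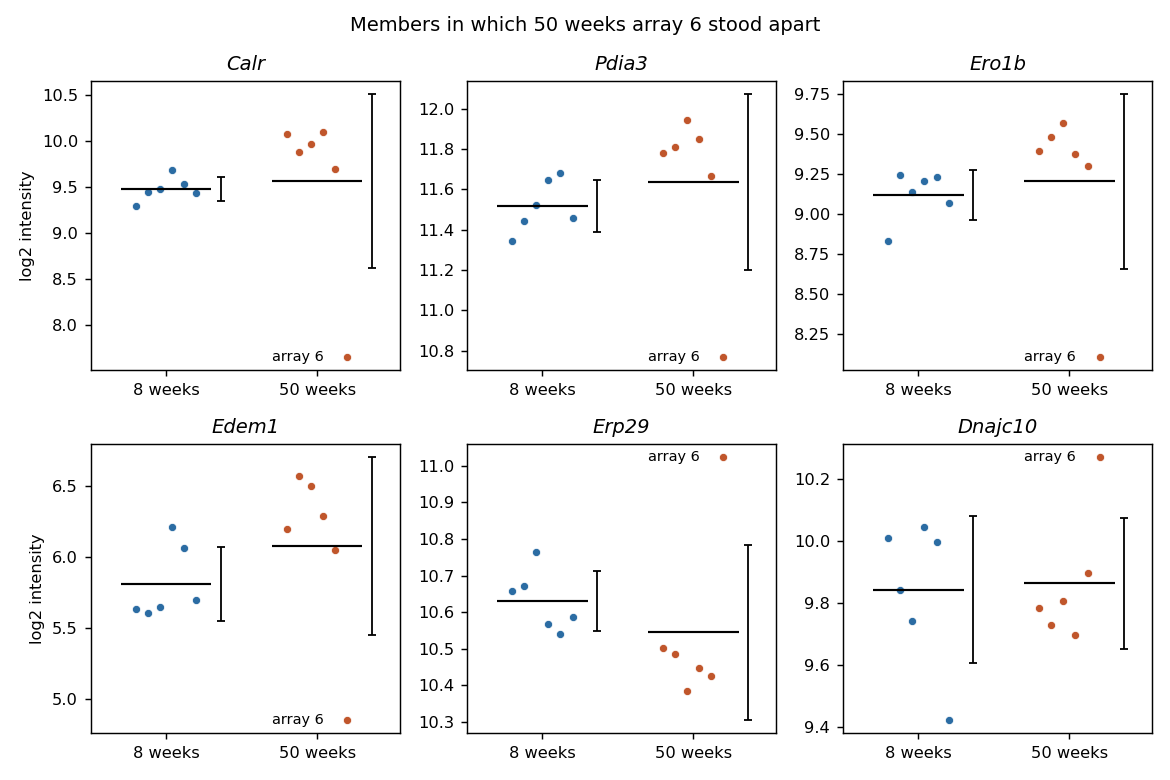
Log2 intensity of 6 members in which 50 weeks array 6 stood apart from the other 5 old arrays, with 1 point per array, a line at the mean of each age and a bar for 1 SD. Array 6 is low in Calr, Pdia3, Ero1b and Edem1 and high in Erp29 and Dnajc10.

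Without array 6, 21 members rose and 1, Erp29, fell, while 11.4% of all genes were higher and 1277 of 9379 lower. All 12 members that rose with it also rose without it. The 9 gained were Hyou1, Manf, Pdia3, P4hb, Ero1b, Fkbp11, Calr, Edem1 and Derl3. Calr changed by 0.47 ± 0.09 (limma adjusted p = 0.00313), Derl3 by 0.62 ± 0.11 (0.00175), Hyou1 by 0.57 ± 0.11 (0.00276) and Edem1 by 0.51 ± 0.13 (0.0149). Erp29 changed by -0.18 ± 0.06 (0.0456). Leaving out 8 weeks array 4 also brought Fkbp11 and Derl3 past the threshold (0.0458 and 0.0467).

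Of 15 measured genes listed as stress sensors, transcription factors or their regulators, 2 rose (13.3%, beside 6.35% of all genes). Another 1 fell, beside 6.13% of all genes, and the median change of the 15 was 0.16. With arrays scaled to 1 median, or with the replicate block, 0 of the 15 rose and 0 fell. Atf4, the transcription factor of the integrated stress response, fell from 10.18 ± 0.21 to 9.73 ± 0.16 (SD, n = 6 each), by 0.44 ± 0.11 on the log2 scale (limma adjusted p = 0.0173). That call was lost with arrays scaled to 1 median, with a mean over probes and with the replicate block (adjusted p up to 0.279). Bhlha15 (Mist1), a transcription factor of secretory cells, rose by 0.41 ± 0.11 (adjusted p = 0.0309), and Atf6b, a relative of Atf6, rose by 0.33 ± 0.09 (0.0335).

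Besides those settings, the call of Bhlha15 was lost without 8 weeks arrays 1, 3 or 4 or 50 weeks arrays 1 to 5, each left out alone, and that of Atf6b without 8 weeks arrays 1, 4 or 6 or 50 weeks arrays 1, 2, 4 or 5 (adjusted p up to 0.0781 and 0.0727). Trib3, a target of Atf4, had a change of -0.73 ± 0.25 that did not pass (adjusted p = 0.0748). Xbp1, named after its values were seen, had -0.03 ± 0.08 (0.836), measured for the gene as a whole and not for its spliced form. Without 50 weeks array 6, 4 genes of this group rose and 1 fell, beside 1071 higher (11.4%) and 1277 lower of all 9379 genes.

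Other ER folding and degradation factors come from lists of genes outside the 37. Of 27 measured folding factors 1 rose and 1 fell (3.7% higher, beside 6.35% of all genes higher and 6.13% lower). Their median change was 0.05. Ppic (cyclophilin C), a proline isomerase, fell by 1.11 ± 0.09 on the log2 scale (limma adjusted p = 7.58e-06), from a young range of 7.72 to 8.32 to an old range of 6.86 to 6.98. Mogs, the glucosidase that trims the first sugar of nascent glycoproteins, rose by 0.35 ± 0.10 (0.0366). Its call was lost without 8 weeks arrays 1, 3, 4 or 6 or 50 weeks arrays 1 to 4, and also with arrays scaled to 1 median and with the replicate block (adjusted p up to 0.128). Tmx4, a membrane thioredoxin, had -0.29 ± 0.10 (0.0846) and P4ha1, a collagen prolyl hydroxylase detected by 1 young and 5 old arrays, had 0.24 ± 0.11 (0.186), and neither passed.

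Of 22 measured degradation factors, 2 rose and 1 fell (9.09% higher, beside 6.35% of all genes higher and 6.13% lower). Their median change was 0.04. Rnf5, a membrane ubiquitin ligase, rose by 0.35 ± 0.07 (limma adjusted p = 0.00711), a call lost with arrays scaled to 1 median (0.127). Faf2, which brings the segregase p97 to the membrane, rose by 0.23 ± 0.06 (0.0307), and Erlec1, a lectin relative of Os9, fell by 0.36 ± 0.10 (0.0312). The call of Faf2 was lost without 8 weeks arrays 1, 2, 4 or 5 or 50 weeks arrays 1, 3, 4 or 5, and that of Erlec1 without 8 weeks arrays 1, 3, 4 or 5 or 50 weeks arrays 1 or 3. Both were also lost with arrays scaled to 1 median and in the values the authors scaled, and Faf2 with the replicate block (adjusted p up to 0.275 for Faf2 and 0.496 for Erlec1). Under 1 median 0 of the 22 rose and 0 fell. Ube2g1, a ubiquitin-conjugating enzyme, had -0.22 ± 0.08 and did not pass (0.0976). Without 50 weeks array 6, 3 folding factors rose and 2 fell, and 4 degradation factors rose and 1 fell. Over all 9379 genes, 1071 (11.4%) were then higher and 1277 lower.

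Chaperones of the cytosol and mitochondria serve proteins outside the secretory pathway. Of 29 measured cytosolic chaperones 0 rose and 5 fell by limma, beside 6.35% of all genes higher and 6.13% lower. At an unadjusted p under 0.05, 0 were higher and 7 lower, and the median change was -0.09. With detection required on all 12 arrays, 0 of 26 rose and 4 fell. Hspa1a and Hspa1b, the inducible Hsp70 genes, fell by 0.42 ± 0.08 (adjusted p = 0.00411) and by 0.50 ± 0.11 (0.00807). They are near-identical copies, so their probes may share transcripts. Cct4, a subunit of the TRiC chaperonin, fell by 0.32 ± 0.07 (0.0120), and Dnaja2, a cochaperone of Hsp70, fell by 0.38 ± 0.10 (0.0236).

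Hspa4l, an exchange factor, was named after its values were seen because it completes the 5 that fell. It was at least 1.16-fold lower at 50 weeks, where 1 array of 6 detected it (limma adjusted p = 0.0388). Hspa4l passed the detection filter mainly through the young arrays, so its call is not given as support. With arrays scaled to 1 median, a scaling that shifted the median over all genes by 0.12, 0 cytosolic chaperones fell and their median change was 0.04, or -0.06 relative to that of all genes. Under that scaling 9 ER members still rose. The call of Dnaja2 was also lost with the replicate block and without 8 weeks arrays 1, 3 or 6 or 50 weeks arrays 1 or 3, and that of Hspa4l in 14 of 20 alternatives, each array but 8 weeks 5 and 6 and 50 weeks 6 among them. Without 50 weeks array 6, 2 cytosolic chaperones rose and 8 fell, beside 1071 higher (11.4%) and 1277 lower of all 9379 genes.

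Of 9 measured mitochondrial chaperones 0 rose and 1 fell, beside 6.35% of all genes higher and 6.13% lower. Of the 9, 0 were higher and 3 lower at an unadjusted p under 0.05. Hspa9 (mortalin), the mitochondrial Hsp70, fell by 0.33 ± 0.09 (limma adjusted p = 0.0320). Its call was lost without 8 weeks arrays 2, 5 or 6 or 50 weeks arrays 1, 2 or 4, and also with arrays scaled to 1 median, in the authors' scaled values, with a mean over probes and with the replicate block (adjusted p up to 0.566). Grpel1 and Lonp1, an exchange factor and a protease, had -0.21 and 0.26, and Hspd1, the chaperonin Hsp60, had -0.23, and none of the 3 passed. Without 50 weeks array 6, 1 of the 9 rose and 2 fell, beside 1071 higher (11.4%) and 1277 lower of all 9379 genes. Whether the ER members differed from the chaperones of other compartments was not tested.

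**Figure D5:**
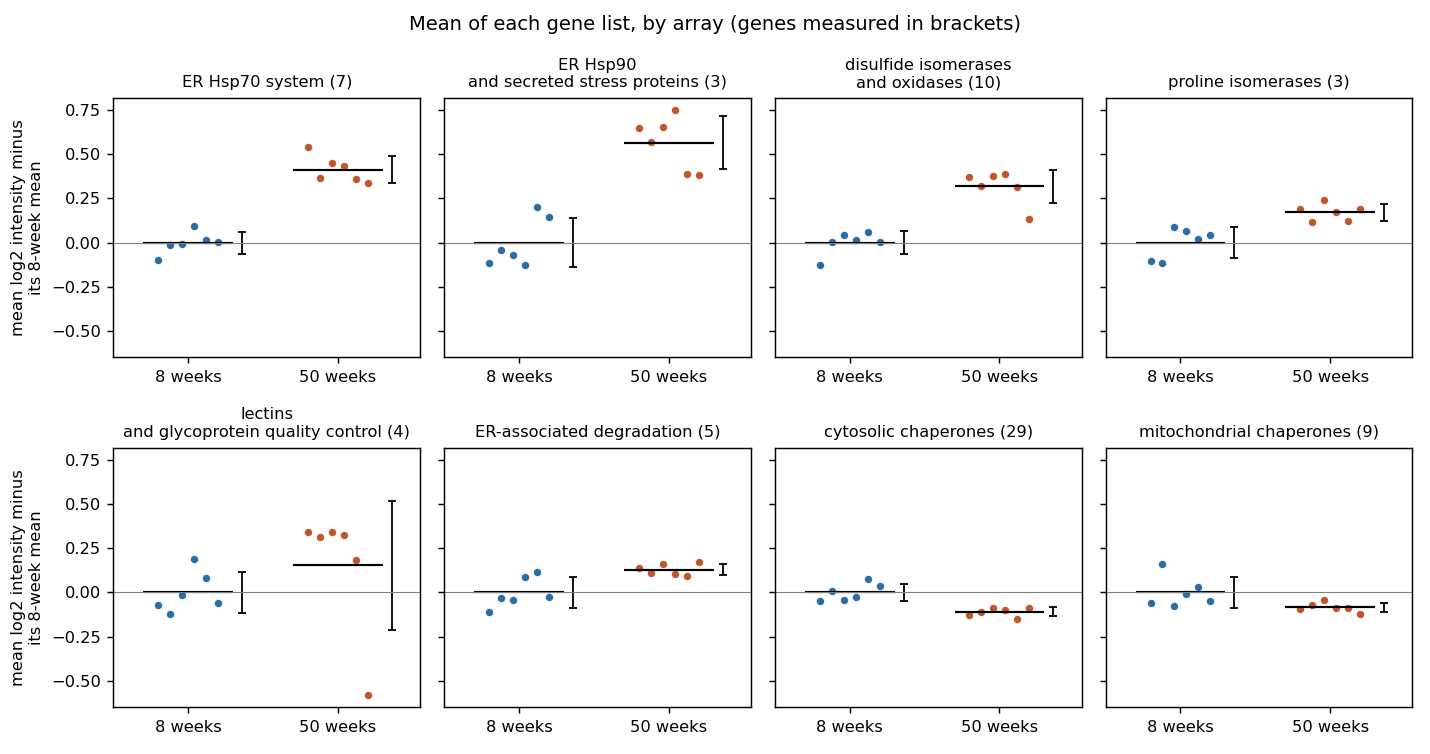
Mean log2 intensity of the 6 ER roles and of the cytosolic and mitochondrial chaperones on each array, as the difference from the mean of the 8-week arrays, with 1 point per array, a line at each mean and a bar for 1 SD. In the Hsp70, Hsp90, disulfide and proline isomerase panels the 6 old arrays lie above every young one, and array 6 is the low point in the lectin panel.

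Markers of immune cells were also higher at 50 weeks. Those of B, plasma, T and NK cells were near the limit of detection. The 8 macrophage genes stayed measured with detection required on all 12 arrays. Plasma cells, which secrete antibody, also hold abundant ER chaperones. Of 13 listed B and plasma cell genes 4 were measured, with a summed linear intensity of 87.8 to 217 at 8 weeks and 180 to 730 at 50 weeks. Mzb1, an ER cochaperone of plasma cells, was detected by 2 of 6 arrays at 8 weeks and by all 6 at 50 weeks, and was at least 6.87-fold higher. Pou2af1, a B cell coactivator, was detected by 1 and by 6 arrays and was at least 2.26-fold higher. Both passed the detection filter only through the old arrays, so their calls and the count of the measured genes are not given as support. With no detection filter, 3 of the 10 genes on the array rose, beside 2.8% of all genes, with a median change of 0.51. With detection required on all 12 arrays 0 of the 10 were left. Tnfrsf17 and Prdm1 were detected on 0 of 12 arrays, Ms4a1 on 1, Jchain and Sdc1 on 3 each and Irf4 on 5, all of these old.

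The B and plasma cell means of young arrays 1 to 6 were 5.60, 5.30, 4.46, 4.55, 4.68 and 4.51. Their ER means were 9.01, 9.08, 9.13, 9.18, 9.19 and 9.13. On old arrays 1 to 6 the B and plasma cell means were 7.11, 7.24, 6.64, 5.39, 6.28 and 6.14. Beside them stood ER means of 9.50, 9.42, 9.49, 9.48, 9.38 and 9.24. These B and plasma cell means include Mzb1 and Pou2af1, which passed the filter only through the old arrays. The part of these cells in the ER result was not tested.

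Other cell types also differed. Of the 8 T and NK cell genes on the array, 3 rose with no detection filter, beside 2.8% of all genes. With detection required on all 12 arrays 0 of the 8 were left. The summed intensity of the 5 measured was 130 to 322 at 8 weeks and 288 to 525 at 50 weeks. Cd3g, a T cell receptor subunit, was at least 1.92-fold higher at 50 weeks and passed the filter only through those arrays, with 2 of 6 young arrays detecting it. Nkg7, a granule protein of cytotoxic cells, rose by 1.34 ± 0.30 (limma adjusted p = 0.0103).

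Macrophage genes rose in 6 of 8 (summed intensity 1046 to 2221 and 1808 to 2696), beside 6.35% of all genes. Aif1 and Mpeg1 led, with changes of 0.96 ± 0.22 and 0.91 ± 0.21 (limma adjusted p = 0.0118 and 0.0142). That count was 3 on leaving out any one of the young arrays 4, 5 and 6 or the old arrays 1, 2, 3 and 4, 4 without young array 3 or old array 5, and 2 with arrays scaled to 1 median. Myoepithelial genes rose in 4 of 5 (10970 to 13760 and 15480 to 17680), beside the same 6.35%. The count was 2 with arrays scaled to 1 median, and 3, without Myh11, on leaving out any single array but 50 weeks array 6. Without that array it was 5, while 11.4% of all genes were higher. The mean of these genes was 9.68 to 9.97 on young arrays, 10.35 to 10.51 on the first 5 old arrays and 9.86 on array 6. Krt14, a basal keratin, and Acta2, smooth muscle actin, changed by 0.52 ± 0.08 and 0.41 ± 0.08 (limma adjusted p = 0.000987 and 0.00711).

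Fibroblast genes fell in 4 of 7 and rose in 1 (6521 to 9131 and 5156 to 7191), beside 6.13% of all genes lower and 6.35% higher. Col3a1, a fibrillar collagen, and Sparc, a collagen-binding matrix protein, changed by -1.13 ± 0.12 and -0.90 ± 0.11 (limma adjusted p = 7.17e-05 and 0.000247). Of the gland's secretory cells, 1 of 12 acinar genes rose, Bhlha15, and 0 fell, while Slc12a2, a chloride cotransporter, had -0.31 and did not pass (0.0643). Of 6 granular duct genes 0 rose and 1 fell, Klk1, a tissue kallikrein, by 0.73 on the log2 scale, and its relative Klk1b22 had 0.10 and did not pass. Of 8 duct genes Cftr rose by 0.60 ± 0.17 (limma adjusted p = 0.0332) and Ascl3 fell by 0.85 ± 0.14 (0.00188). The call of Cftr was lost with no detection filter and without 8 weeks arrays 1, 2, 4 or 5. It was also lost without 50 weeks arrays 3, 4 or 5, or without both 8 weeks array 2 and 50 weeks array 6.

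Of 5 endothelial genes Cdh5 fell by 0.45 ± 0.13 (limma adjusted p = 0.0442), and Tek had -0.27 and did not pass. The call of Cdh5 was lost with no background correction, 1 median, the authors' scaled values, no detection filter or the replicate block. It was also lost without 8 weeks arrays 1, 2, 3, 4 or 5 or 50 weeks arrays 1, 3, 4 or 5. Without 8 weeks array 3, Tek passed as lower. Of the 2 measured adipocyte genes and the 2 measured genes of lymph node and sublingual tissue, 0 passed in either direction, with 0 at an unadjusted p under 0.05. The part of each of these cell types in the ER result was not tested.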

How the data were processed

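Total RNA of 6 arrays per age was compared. The authors deposited a table of linear probe intensity with a detection p-value per array, per the file headers, for 45281 probes. A second deposited table holds the same intensity values multiplied by 1 factor per array (0.803 to 1.26). Scanner and summary software are not named in the labels. Of the probes, 34885 had 1 gene symbol, 18 several and 10378 none in the array annotation, and 34807 were matched by gene number to RefSeq names of GRCm38.p6, with 0 symbols changed.

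Intensities were background-corrected, quantile-normalised and put on the log2 scale with neqc (limma 3.58.1, R 4.3.3, and version 1.17.8 of the data.table package), with an offset of 16. Probes with a detection p-value under 0.05 on at least 6 of 12 arrays were kept (16254, of which 13842 had 1 symbol), and the brightest probe stood for its gene, which gave 9379 genes. Other kept probes of a member were fitted in a table of all probes. Ages were compared by limma's 2-sided moderated test, with p-values adjusted over all genes (Benjamini-Hochberg, threshold 0.05), and the steps were tested on simulated data. Nothing states that arrays are separate animals, so the spread that p-values measure is that between these samples and may be technical. The number of arrays limits the precision. A bound on a fold raises values below the lowest detected probe of their array to it.

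The members and all lists were chosen with earlier results of these data known. Named genes were the members past the threshold, the member of each role with the smallest adjusted p, and the up to 4 genes of each pathway list and 2 of each marker list with the smallest adjusted p. Xbp1 and Hspa4l were named after their values were seen. Other members are given by value. Promoter windows came from RefSeq. Alternatives covered background correction, scaling, filter, probe choice, array weights, a replicate block and left-out arrays.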

Additional observations from a re-analysis of the deposited data

Results flagged for a closer look

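Of 66 groups of 6 arrays examined, 9 held 1 array whose gap to its nearest neighbour took an unusually large share of the group's range (Dixon's 95% value), where chance gives about 1 in 20. Of these, 6 were 50 weeks array 6: Calr at 7.65, Pdia3 at 10.77, Ero1b at 8.10 and Edem1 at 4.86 were low, and Erp29 at 11.02 and Dnajc10 at 10.27 were high. The other 3 were Pdia4 on 8 weeks array 1, low at 9.19 against 9.52 or more, Pdia5 on 8 weeks array 3, high at 8.14 against 7.88 or less, and Pdia6 on 50 weeks array 5, low at 7.56 against 7.83 or more.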

How the results depend on the processing

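Of the 12 members that rose, 9 kept their call under all 21 alternatives; Hspa5 lost it under 11, Sil1 under 10 and Pdia4 under 2. With arrays scaled to 1 median, 393 genes changed (320 higher, 73 lower, against 596 and 575), and the mean change of the members was 0.42, or 0.32 less the median of all genes. Array weights gave 2593 changed genes (1155 higher, or 12.3%, and 1438 lower), with 22 members higher. Leaving out both 8 weeks array 2 and 50 weeks array 6 gave 2540 (1138 higher, or 12.1%, and 1402 lower), with 20 members higher. Leaving out 1 array at a time gave 810 changed genes (429 higher and 381 lower, without 50 weeks array 1) to 2348 (1071 and 1277, without 50 weeks array 6). Members ran from 10 to 21 higher and from 0 to 1 lower, with a mean change of 0.28 to 0.33. No member that passed the test changed sign. Signs turned only in members near 0: with 1 median, Erp29 at 0.028, Sel1l at 0.075 and Derl2 at 0.10; in the authors' scaled values, Derl2 at 0.0003; with a mean over probes, Dnajc10 at -0.20 and Sel1l at 0.036; with weights, Dnajc10 at -0.049, and without both arrays at -0.061. Over the arrays left out singly, Dnajc10 ran from -0.063 to 0.061, Calr from -0.024 to 0.47, Sel1l from -0.12 to 0.037 and Derl2 from -0.088 to 0.020. The cause was not tested. Deviations of same-numbered arrays from their age means correlated with r of 0.25, 0.25, 0.30, 0.17, 0.10 and -0.01 for numbers 1 to 6. Of these, 1 of 6 correlated best with its own number. The labels name no pairing, and these values cannot decide whether the numbers pair the samples. With the replicate block, 911 genes changed (501 higher and 410 lower) and 11 members were higher. Low signal limits Manf, Edem1 and the 4 members detected on 0 arrays.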
